A study of Arabidopsis thaliana with 18 samples.

Results

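The 7 genes described here make up 2 biosynthetic gene clusters of chromosome 5 of Arabidopsis thaliana, of 34218 features in the count table and 20869 genes that had enough reads to be tested. The marneral cluster holds MRN1 (AT5G42600), CYP71A16 (AT5G42590) and CYP705A12 (AT5G42580). The thalianol cluster holds THAS (AT5G48010), THAH (AT5G48000), THAD (AT5G47990) and THAA (AT5G47980). The genes were chosen by locus code, and the choice was made because of measured values: MRN1 was higher in untreated roots of one mutant than in the wild type. All 7 passed the filter on low counts.

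Plants make triterpenes by folding the linear precursor oxidosqualene into rings, a step carried out by oxidosqualene cyclases, and then decorating the product with cytochrome P450 enzymes and acyltransferases. In Arabidopsis the genes for some of these pathways lie side by side, and their products are made mainly in the root, where they are known to shape the bacteria that live on it. MRN1 is the cyclase that makes marneral, CYP71A16 oxidises the marneral product, and CYP705A12 is the other P450 gene of that cluster. THAS is the cyclase that makes thalianol, THAH (a P450, CYP708A2) hydroxylates it, THAD (a P450, CYP705A5) desaturates it, and THAA is an acyltransferase.

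RNA came from roots of seedlings 5 days old that had spent 8 h on plates with 1 µM abscisic acid (ABA, a hormone that plants make when short of water) or on mock plates. Seedlings were wild type (Col-0), mutant in VND1, VND2 and VND3 together (vnd123) or mutant in VND7 alone (vnd7). VND genes encode NAC transcription factors that drive the formation of xylem vessels, and the labels name no alleles. There were 6 groups of 3 libraries, each from 50 to 100 pooled seedlings, with 38325491 to 58705802 counted reads per library. Whether replicates were grown separately is not labelled, so the spread behind each p-value may be a technical one. Levels are CPM (reads scaled to a common library size), and changes are log2 fold changes ± SE from edgeR's quasi-likelihood test, called at a Benjamini-Hochberg adjusted p under 0.05 over all genes tested.

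The mutated loci were low in the libraries labelled as mutant. In mock roots VND1 averaged 1.35 ± 0.12 CPM in Col-0 and 0.0492 ± 0.07 in vnd123, VND2 1.82 ± 0.35 and 0.456 ± 0.01, and VND3 3.76 ± 0.17 and 1.51 ± 0.23, while VND7 was 2.32 ± 0.21 CPM in Col-0 and 0.396 ± 0.19 in vnd7 (SD, n = 3). Markers of root identity summed to 5710 to 10400 CPM and those of shoot and photosynthesis to 73.6 to 170 CPM over the 18 libraries. The root sum was mostly PYK10, which gave 8580 of a mean of 9040 CPM in Col-0 mock. There the other root markers ran from 2.13 (WOX5) to 278 CPM (CASP1). No marker list had a gene without reads in all libraries of a group.

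The regions upstream of the genes at the 2 ends of the response are shown because the clusters moved in opposite directions under ABA, as described below. Each sequence runs from 250 bases before to 50 bases after the annotated start in RefSeq's TAIR10.1 genome, was found by locus code, and is given 5′ to 3′ on the strand of the gene. MRN1, THAS and THAA lie on the plus strand of chromosome 5 and CYP705A12 on the minus strand. Capitals mark ACGTG, the core shared by ABA-responsive elements, or CACGT, the same letters on the other strand.
MRN1: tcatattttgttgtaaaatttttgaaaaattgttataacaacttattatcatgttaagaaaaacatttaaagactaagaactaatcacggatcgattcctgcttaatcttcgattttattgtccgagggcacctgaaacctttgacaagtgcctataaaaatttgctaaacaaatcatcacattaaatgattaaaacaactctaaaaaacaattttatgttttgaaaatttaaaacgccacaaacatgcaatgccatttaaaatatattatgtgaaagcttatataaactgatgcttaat
CYP705A12: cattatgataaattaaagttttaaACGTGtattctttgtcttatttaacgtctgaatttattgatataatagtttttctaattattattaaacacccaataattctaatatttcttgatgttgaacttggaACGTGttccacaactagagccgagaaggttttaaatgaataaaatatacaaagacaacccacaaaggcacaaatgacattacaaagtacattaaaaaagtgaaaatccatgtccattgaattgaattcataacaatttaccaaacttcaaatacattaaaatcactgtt
THAS: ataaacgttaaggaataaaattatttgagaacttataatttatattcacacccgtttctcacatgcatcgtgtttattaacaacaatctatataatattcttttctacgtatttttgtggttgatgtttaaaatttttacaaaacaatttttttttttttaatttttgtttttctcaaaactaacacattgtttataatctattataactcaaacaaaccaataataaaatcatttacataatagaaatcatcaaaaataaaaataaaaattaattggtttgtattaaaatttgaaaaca
THAA: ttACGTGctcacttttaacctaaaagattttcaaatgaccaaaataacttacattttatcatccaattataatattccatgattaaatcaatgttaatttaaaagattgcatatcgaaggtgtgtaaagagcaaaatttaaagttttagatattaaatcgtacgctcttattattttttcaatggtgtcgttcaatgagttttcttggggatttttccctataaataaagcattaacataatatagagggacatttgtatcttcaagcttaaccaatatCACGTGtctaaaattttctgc
ACGTG was found in 3 of the 7 windows, against 7333 of 27443 windows of the same length at annotated protein-coding genes of the nuclear chromosomes (26.7%). CYP705A12 held it at -226 and -119 from the start, and THAA at -248 and, as overlapping matches on both strands, at 30 and 31. THAD held it at -65. MRN1, CYP71A16, THAS and THAH held none in this window. A match is a description of these letters and not of a bound site.

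After ABA, all 3 marneral cluster genes were higher in Col-0 and all 4 thalianol cluster genes were lower. MRN1 stood at 6.76, 5.73 and 3.37 CPM in the 3 Col-0 mock libraries and at 89.2, 95.5 and 73.8 CPM after ABA. The treated libraries were all far above the mock ones. The gene rose 16.4-fold (log2 4.03 ± 0.24, adjusted p = 1.44e-10), and of the 20869 genes tested 140 had a more positive change. The Col-0 mock libraries were part of the comparison that chose MRN1.

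The P450 genes beside it moved less. CYP71A16 measured 60.6, 50.8 and 49.3 CPM in mock and 83.7, 80.7 and 77.1 CPM after ABA, a 1.5-fold rise (log2 0.59 ± 0.08, adjusted p = 1.18e-05). CYP705A12 measured 15.6, 12.2 and 12.2 CPM in mock and 33.1, 24.9 and 24.5 CPM after ABA, a 2.06-fold rise (log2 1.04 ± 0.14, adjusted p = 4.86e-06). Neither gene's mock and ABA libraries overlapped.

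In the thalianol cluster the cyclase and the acyltransferase had the most negative changes. THAS, which makes the scaffold, fell from 372, 283 and 371 CPM to 160, 104 and 124 CPM (log2 -1.40 ± 0.15, adjusted p = 5.88e-07). THAA, the acyltransferase, fell from 45.9, 41 and 49.1 CPM to 14.3, 13.5 and 14.2 CPM (log2 -1.69 ± 0.12, adjusted p = 1.17e-09). The P450 genes fell less: THAH changed by -0.86 ± 0.11 (195 to 107 CPM, adjusted p = 3.55e-06) and THAD by -0.68 ± 0.12 (294 to 184 CPM, adjusted p = 0.000171), both on the log2 scale.

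Among all genes tested in Col-0, 17.9% were called higher after ABA and 13.4% lower, with a median change of 0.00, and the member counts of 3 of 3 higher and 4 of 4 lower are to be read beside those shares. The median of the marneral cluster was 1.04 and that of the thalianol cluster -1.13. With library totals in place of scaling factors, the share of called genes that were higher went from 57.3% to 42.8% and the median of all genes to -0.07; the 7 members kept their direction and their calls under both scalings.

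**Figure D1:**
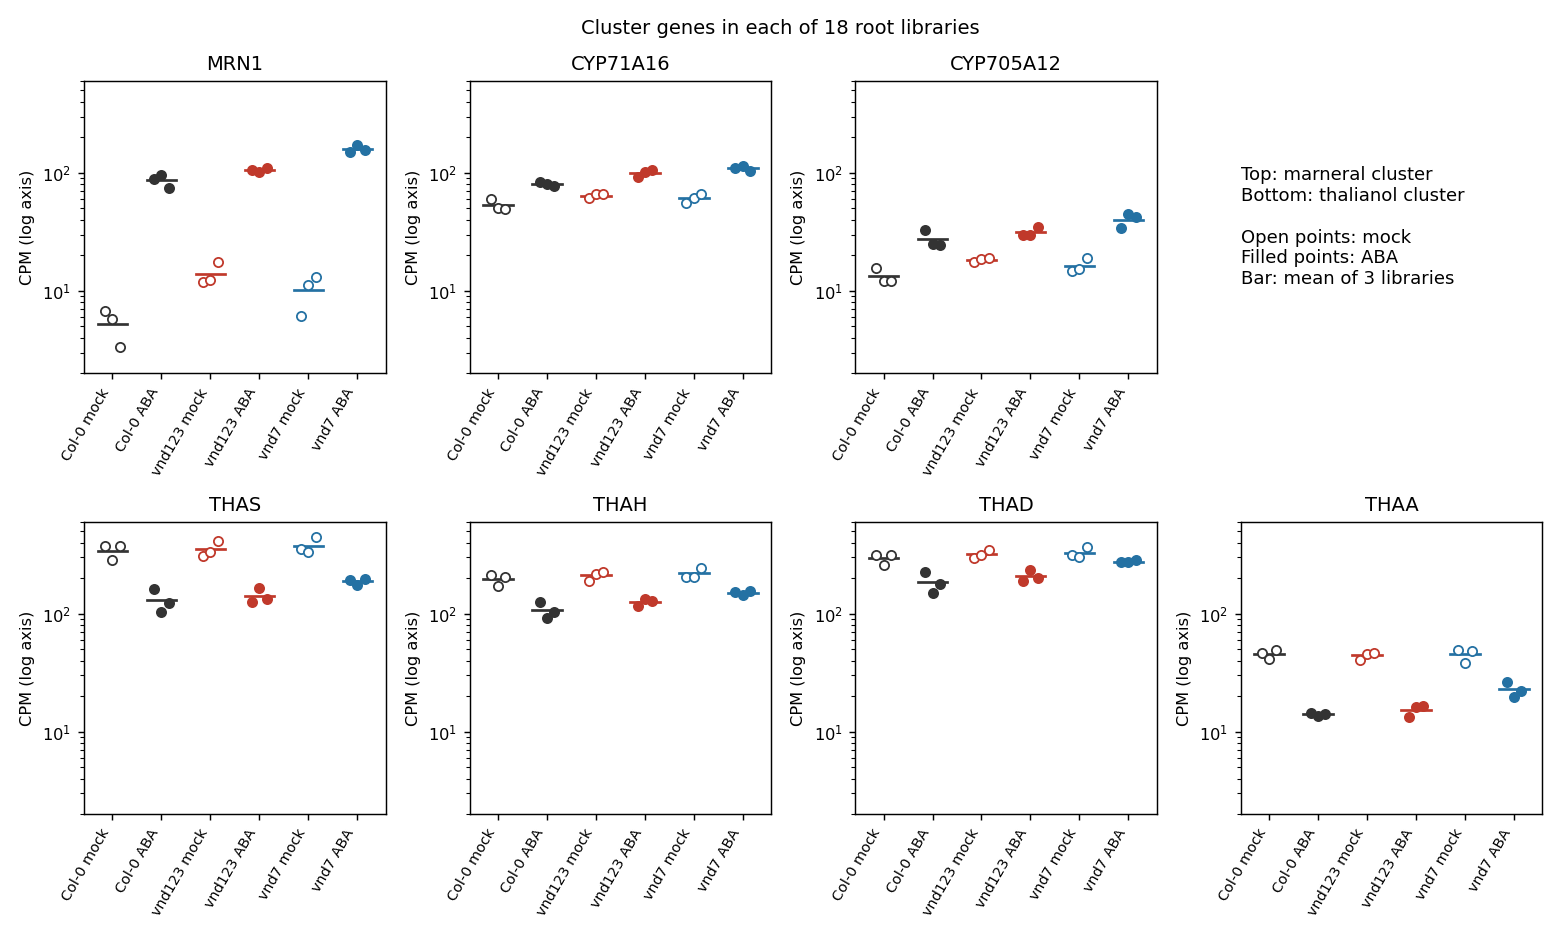
CPM of the 7 cluster genes (log axis) in each of the 18 libraries, open points for mock, filled for ABA, bars for the mean of 3 libraries. MRN1 lies between 3.37 and 17.5 CPM in the mock libraries and between 73.8 and 171 CPM in the ABA libraries, while THAS and THAA are lower in every ABA library than in any mock library.

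The same directions were found in both mutants. MRN1 measured 11.8, 12.4 and 17.5 CPM in vnd123 mock and 105, 101 and 109 CPM after ABA (log2 2.92 ± 0.22, adjusted p = 4.65e-09), where the mock libraries were again part of the comparison that chose it. In vnd7, whose libraries were not, it measured 6.13, 11.2 and 13.2 CPM in mock and 150, 171 and 156 CPM after ABA (log2 3.97 ± 0.23, adjusted p = 1.01e-10). In each genotype, no ABA library overlapped a mock library for any of the 7 genes, which was also so for 42.5% of all genes tested in Col-0, 44.6% in vnd123 and 44.4% in vnd7.

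In vnd123, 18.6% of all genes were called higher and 13.8% lower; 3 of 3 marneral genes were higher and 4 of 4 thalianol genes lower. In vnd7, with 18.8% and 14.5%, the counts were 3 of 3 and 3 of 4. On the log2 scale CYP71A16 changed by 0.64 ± 0.08 (vnd123) and 0.84 ± 0.08 (vnd7), and CYP705A12 by 0.77 ± 0.13 and 1.29 ± 0.13 (adjusted p from 1.12e-07 to 0.000133).

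The estimates for the thalianol genes lay nearer to 0 in vnd7, a difference whose test is given in the next paragraph. THAS changed by -1.32 ± 0.15 in vnd123, and in vnd7 it went from 377 ± 59.4 to 188 ± 11.9 CPM (adjusted p = 3.10e-05), while THAA changed by -1.54 ± 0.12 and -0.99 ± 0.11. THAH changed by -0.74 ± 0.11 and -0.54 ± 0.11. THAD changed by -0.62 ± 0.12 in vnd123 (adjusted p = 0.000445) but by -0.24 ± 0.12 in vnd7 (326 ± 33.9 to 275 ± 6.47 CPM, adjusted p = 0.134). That last value passed the threshold without Col-0 ABA replicate 1 (adjusted p = 0.0436), with unscaled library totals (-0.33, adjusted p = 0.0387) and when the 2 groups were fitted alone (-0.27, adjusted p = 0.0294).

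Whether the response to ABA itself differed between vnd7 and Col-0 was tested as an interaction, which called 0% of genes (0 genes in edgeR and 0 in DESeq2, with 835 genes, 4%, at an unadjusted p under 0.05). The members' differences, vnd7 minus Col-0, ran from -0.07 ± 0.31 for MRN1 to 0.71 ± 0.16 for THAA (adjusted p = 0.895), and 4 of 7 were at an unadjusted p under 0.05. These values share the Col-0 mock libraries with the comparison that chose MRN1. The vnd123 interaction is a description only: -1.12 ± 0.31 for MRN1, with its higher mock level, and -0.27 to 0.15 for the other 6 genes.

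**Figure D2:**
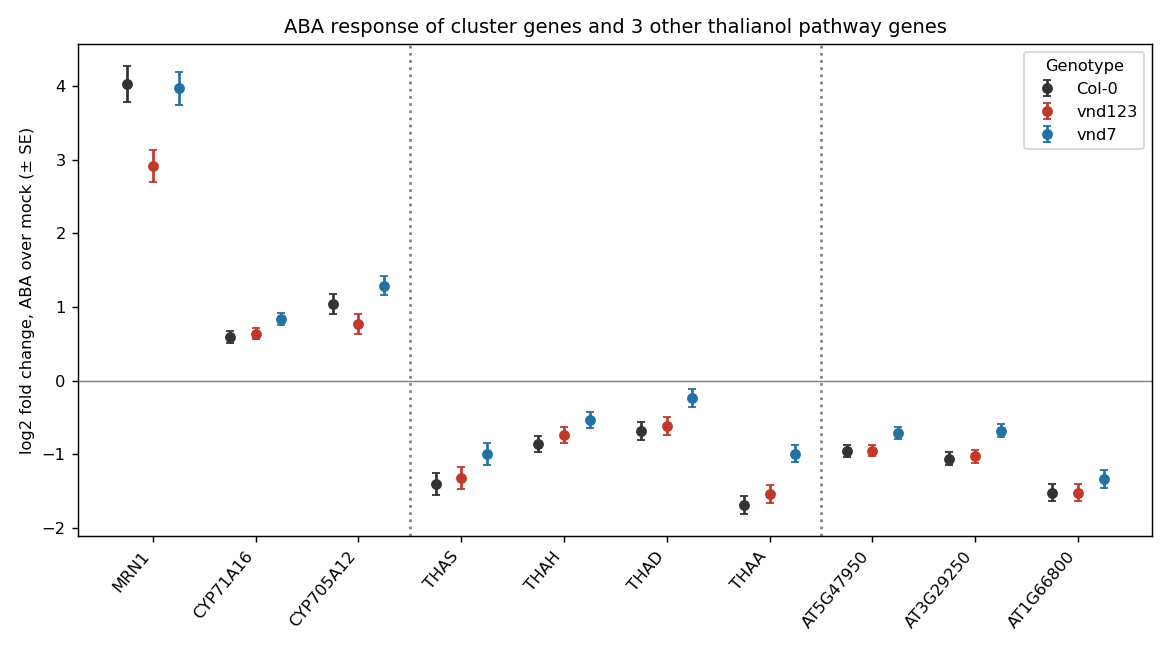
log2 fold change of ABA over mock (± SE, 3 against 3 libraries) in Col-0, vnd123 and vnd7 for the cluster genes and 3 further thalianol pathway genes named by locus code. The marneral genes lie between 0.59 and 4.03 and the thalianol genes between -1.69 and -0.24.

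Within a library, the balance between neighbouring genes changed with ABA. MRN1 had 0.0684 to 0.113 reads for each CYP71A16 read in Col-0 mock and 0.958 to 1.18 after ABA. The range went from 0.188–0.267 to 0.987–1.13 in vnd123 and from 0.11–0.201 to 1.37–1.49 in vnd7. For each THAD read there were 1.09 to 1.2 THAS reads in Col-0 mock and 0.699 to 0.711 after ABA, so THAS went from the more read to the less read of the pair in each genotype. THAS and THAA kept a closer ratio, 6.91 to 8.12 in Col-0 mock and 7.72 to 11.2 after ABA.

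**Figure D3:**
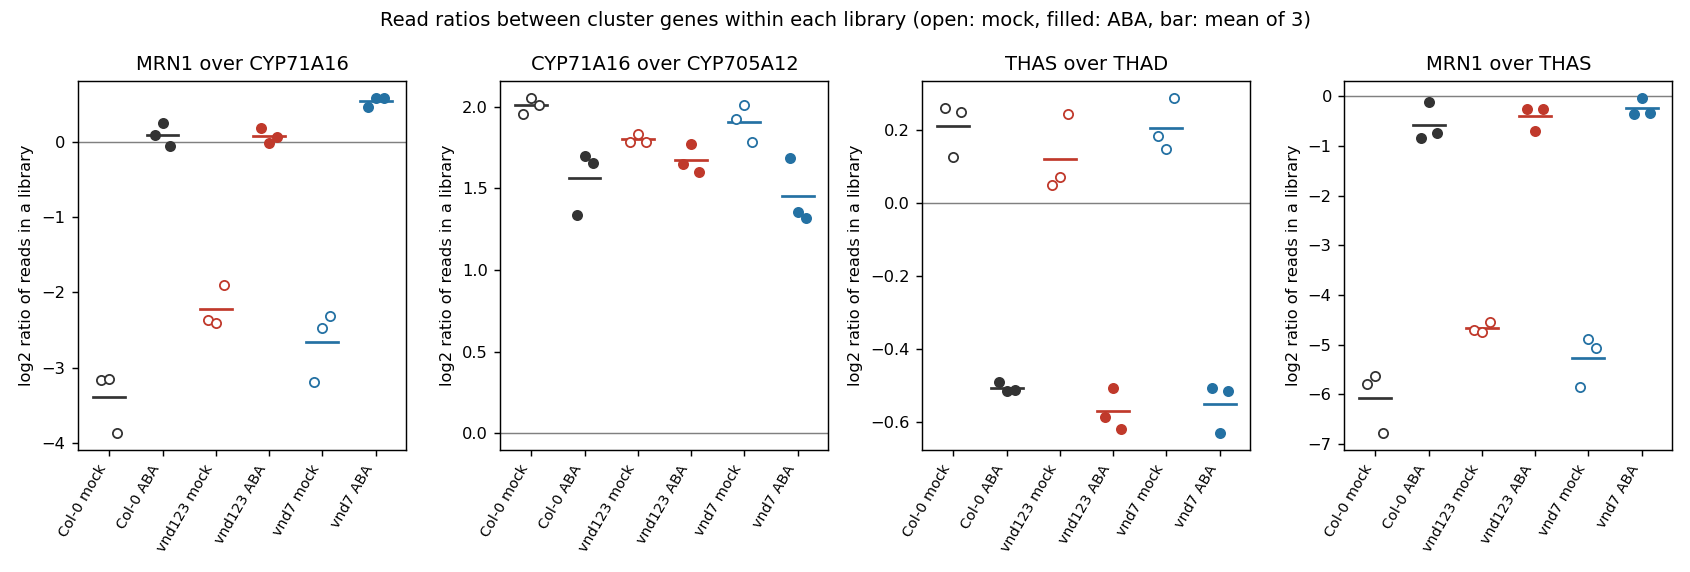
log2 ratio of reads between pairs of cluster genes in each library, open points for mock, filled for ABA, bars for the mean of 3. MRN1 over CYP71A16 averages -3.39 in Col-0 mock and 0.09 in Col-0 ABA; THAS over THAD averages 0.21 and -0.51.

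Per kilobase of exon, THAD, THAS and THAH were the most abundant of the 7 in mock roots. In Col-0 mock THAD stood at 154 ± 15.8 CPM per kilobase, THAS at 129 ± 19.2, THAH at 88.2 ± 10.2 and THAA at 27.8 ± 2.51. CYP71A16 stood at 29 ± 3.32, CYP705A12 at 7.52 ± 1.1 and MRN1 at 1.98 ± 0.65 on that scale (SD, n = 3). After ABA, MRN1 reached 32.3 ± 4.18 and CYP71A16 43.6 ± 1.8, while THAS was at 48.7 ± 10.7 and THAA at 8.6 ± 0.28. No stretch of 50 bases of the members' exons occurs elsewhere in the TAIR10.1 genome, except 57 of 1774 in THAH (3.21%).

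In mock roots of vnd123, the comparison that chose MRN1, it averaged 13.9 ± 3.13 CPM against 5.29 ± 1.73 in Col-0 (log2 1.41 ± 0.24). CYP71A16 was 0.26 ± 0.08 higher and CYP705A12 0.46 ± 0.14 higher on the log2 scale, with no overlap between the libraries. For CYP71A16 the gap was narrow, from 60.6 CPM in the highest Col-0 library to 60.8 in the lowest vnd123 library. The share of all genes without overlap was not counted here. It was 10.5% for vnd7 against Col-0 in mock. The thalianol genes differed by -0.04 to 0.12 and overlapped. These are descriptions with no test. MRN1's log2 difference ran from 1.16 to 1.62 when 1 library was left out.

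The MRN1 means were ordered as Col-0 mock (5.29 CPM), vnd7 mock (10.2), vnd123 mock (13.9), Col-0 ABA (86.2), vnd123 ABA (105) and vnd7 ABA (159). In mock, vnd7 overlapped both Col-0 and vnd123. The Col-0 and vnd123 mock libraries were part of the comparison that chose MRN1. That choice favours a low Col-0 and a high vnd123 level. The mock p-values given next therefore cannot decide whether MRN1 differs between genotypes. vnd7 against Col-0 gave 0.95 ± 0.24 (adjusted p = 0.391). Without vnd7 mock replicate 1, the lowest of its group, it gave 1.21 (adjusted p = 0.0154). vnd123 against vnd7 gave 0.45 ± 0.22 (adjusted p = 1). After ABA the 3 genotypes did not overlap. Of all genes tested, 5.67% were higher in vnd123 than in Col-0 with no overlap, and 7.36% were lower in vnd123 than in vnd7. For MRN1, vnd123 against Col-0 gave 0.29 ± 0.21 (adjusted p = 0.702) and vnd123 against vnd7 -0.60 ± 0.20 (adjusted p = 0.301).

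After ABA, all 7 genes were higher in vnd7 than in Col-0 and none of their libraries overlapped. Of all genes tested, 7.48% were higher in vnd7 with no overlap. The test called 2 of the 7 genes higher, against 0.0767% of all genes. THAA measured 26.5, 19.6 and 22.1 CPM in vnd7 and 14.3, 13.5 and 14.2 CPM in Col-0 (log2 0.70 ± 0.12, adjusted p = 0.0108). CYP71A16 measured 109, 114 and 104 CPM against 83.7, 80.7 and 77.1 CPM (log2 0.44 ± 0.08, adjusted p = 0.0219), a call that was lost without any 1 of the 3 Col-0 ABA libraries or without vnd7 ABA replicate 1 or 2 (adjusted p from 0.0524 to 0.105). The THAA call was lost without Col-0 ABA replicate 2 (adjusted p = 0.0509) or vnd7 ABA replicate 1 (0.0973). The others were MRN1 at 0.88 ± 0.21 (adjusted p = 0.108), CYP705A12 at 0.55 ± 0.13 (0.123), THAS at 0.54 ± 0.15 (0.203), THAH at 0.49 ± 0.11 (0.0932) and THAD at 0.58 ± 0.12 (0.0534). All 7 had an unadjusted p under 0.05, as did 12.8% of all genes tested, and DESeq2 called 5 of the 7 and 159 genes in all. Leaving out 1 library gave 0 to 4 calls: 4 without Col-0 ABA replicate 1 (CYP705A12, THAH, THAD and THAA), 1 without Col-0 ABA replicate 3 or vnd7 ABA replicate 2, and 0 without Col-0 ABA replicate 2 or vnd7 ABA replicate 1.

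The other genotype comparisons gave few calls. vnd123 against Col-0 in ABA, which shares the Col-0 ABA libraries with the previous comparison, called 0 of 7 members against 1.09% of all genes. At an unadjusted p under 0.05 there were 2 members and 10.3% of all genes, and DESeq2 called 1 member; CYP71A16 was nearest at 0.32 ± 0.08 (adjusted p = 0.0779, and 0.037 without Col-0 mock replicate 1). vnd7 against Col-0 in mock, whose Col-0 libraries were used in choosing MRN1, called 0 of 7 against 0.0671%, with 3 members and 4.87% of all genes at an unadjusted p under 0.05 and 0 members by DESeq2. vnd123 against vnd7 called 0 of 7 in mock, where the vnd123 libraries were so used (0 unadjusted, 0 by DESeq2) against 0.494%, and in ABA THAA alone of the 7, lower in vnd123 by -0.58 ± 0.12 (adjusted p = 0.0188), against 0.556% of genes called lower. That call was lost without vnd123 ABA replicate 1 (-0.49, adjusted p = 0.126), without vnd7 ABA replicate 1 (-0.46, adjusted p = 0.143) and when the 2 groups were fitted alone (-0.57, adjusted p = 0.0944). In vnd123 against vnd7 in ABA the estimates of all 7 members were negative. There 6 members had an unadjusted p under 0.05, as did 2108 of the 20869 genes tested, and DESeq2 called 1 member. For 5 of the 7, every vnd123 library lay below every vnd7 library, as for 7.36% of all genes.

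**Figure D4:**
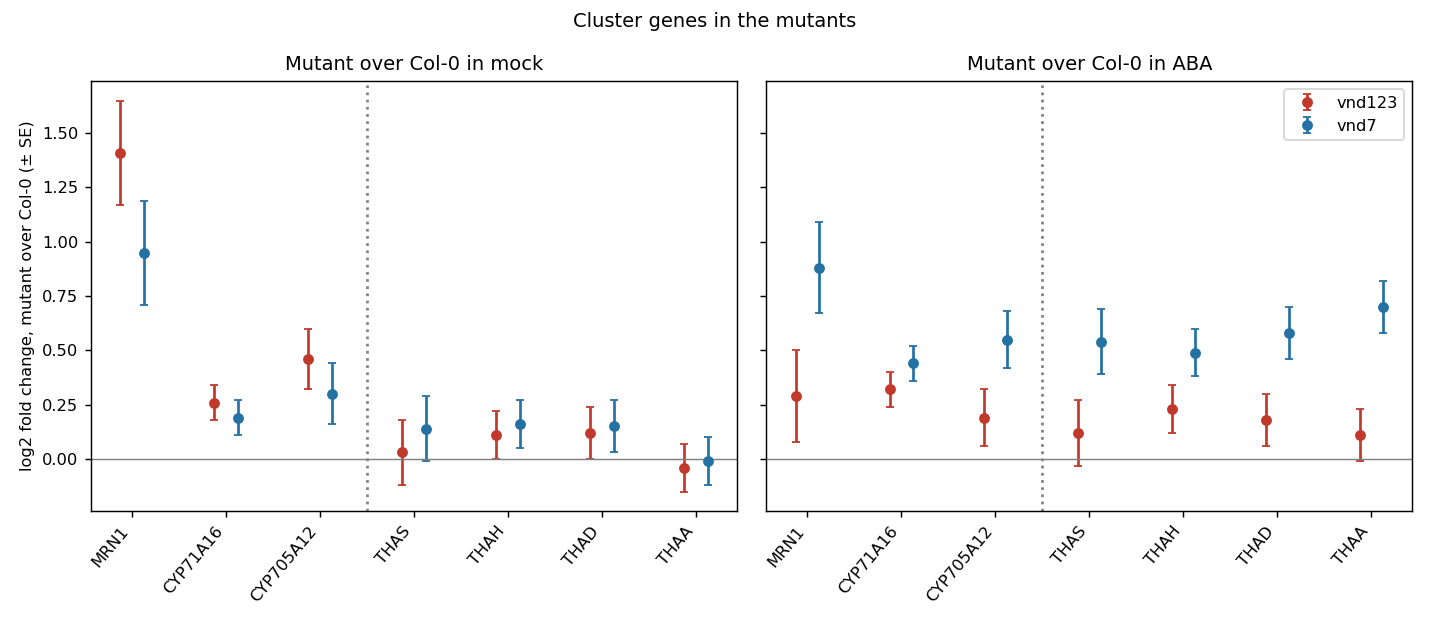
log2 fold change of vnd123 and vnd7 over Col-0 (± SE) in mock and in ABA. In ABA, vnd7 lies above 0 for all 7 genes, from 0.44 for CYP71A16 to 0.88 for MRN1; the vnd123 mock values are those that chose MRN1 and have no test.

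The genes around the clusters were compared to see how far along the chromosome the response reached. Beside the marneral cluster, AT5G42570 rose in Col-0 by 0.41 ± 0.09 (59.9 to 79.8 CPM, adjusted p = 0.000873), AT5G42620 changed by 0.07 ± 0.10 (adjusted p = 0.648) and ATS, a KANADI transcription factor, fell by 0.59 ± 0.14 (adjusted p = 0.00273). AT5G42570 was also called higher in vnd123 and vnd7, AT5G42620 was called higher in vnd7 (0.26 ± 0.10, adjusted p = 0.0445), and ATS was called lower in vnd7 but not in vnd123 (-0.30 ± 0.14, adjusted p = 0.104). The noncoding loci AT5G06325 and AT5G06335 between CYP71A16 and MRN1 had at most 2 reads in any library, and AT5G42610 had at most 14. AT5G00580, AT5G42565 and AT5G42568 were not found by locus code among the counted features. The noncoding AT5G07035 between THAA and THAD had at most 9 reads. Beside the thalianol cluster, AT5G48020 (0.07 ± 0.05), GFA2 (-0.08 ± 0.07) and AT5G48040 (-0.24 ± 0.13) did not pass the test in Col-0. RABA4C (-0.15 ± 0.17) and AT5G47970 (-0.27 ± 0.11) did not pass it either, and they overlap each other, so their reads cannot be told apart without strand. In vnd123 none of these 5 was called, and in vnd7 AT5G47970 (-0.32 ± 0.11, adjusted p = 0.0262) and AT5G48040 (-0.46 ± 0.13, adjusted p = 0.0104) were called lower.

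**Figure D5:**
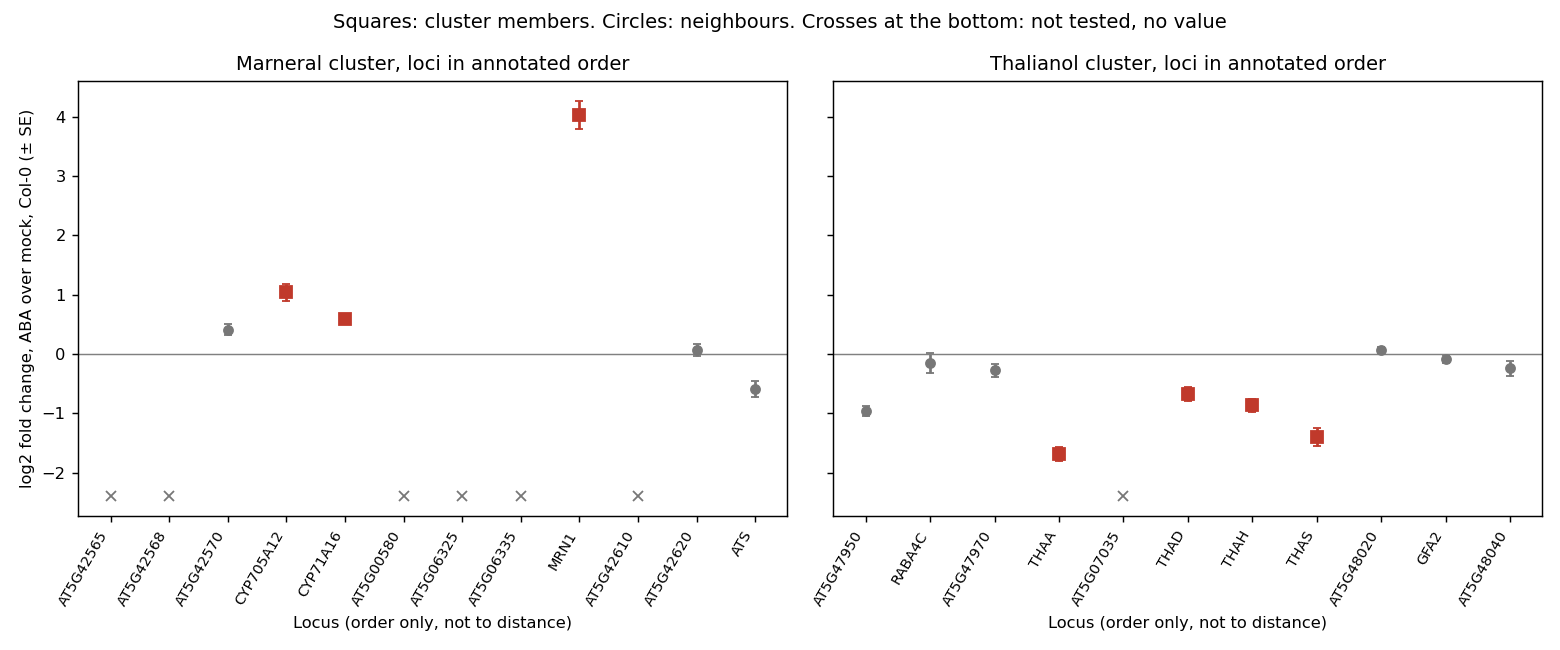
log2 fold change of ABA over mock in Col-0 (± SE) for the cluster genes (squares) and loci beside or between them (circles), in annotated order and not to distance; crosses mark loci with no test. The squares lie between -1.69 and 4.03 and the tested neighbours between -0.96 and 0.41.

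The third neighbour on the thalianol side, AT5G47950, moved with the cluster. It belongs, with AT3G29250 (SDR4 in RefSeq) and AT1G66800, to a list of 3 other thalianol pathway genes. All 3 fell in each genotype: AT5G47950 from 40.7 ± 1.21 to 20.9 ± 2.38 CPM in Col-0 (log2 -0.96 ± 0.08, adjusted p = 1.10e-08), AT3G29250 by -1.06 ± 0.09 (adjusted p = 1.40e-08) and AT1G66800 by -1.52 ± 0.12 (adjusted p = 8.41e-09). AT3G29250 and AT1G66800 lie on other chromosomes.

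Of 11 other oxidosqualene cyclases, 9 could be tested. In Col-0, 0 were higher and 2 lower after ABA, with a median of -0.02: PEN1, the arabidiol synthase, at -0.88 ± 0.11 and PEN3, the tirucalladienol synthase, at -1.80 ± 0.37. Among all genes tested in Col-0, 17.9% were called higher and 13.4% lower. CAS1, the cycloartenol synthase that feeds sterols, was at -0.02 ± 0.08 (adjusted p = 0.894). LAS1, the lanosterol synthase, was called higher in vnd123 (0.67 ± 0.17) and vnd7 (0.70 ± 0.17) but not in Col-0 (0.36 ± 0.17, adjusted p = 0.121). The vnd7 interaction called 0 of these 9 cyclases, LAS1 among them. The difference between vnd123 and Col-0 was not tested. BARS1 (-1.40 ± 0.62), CAMS1 (-0.28 ± 0.20), LUP2 (0.17 ± 0.13), BAS (0.30 ± 0.21) and LUP1 (0.56 ± 0.44) did not pass the test in Col-0, and LUP5 and PEN6 had too few reads. Among the 11 cyclases tested, THAS and MRN1 included, MRN1 alone was called higher in Col-0.

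Upstream, 7 of 19 tested genes from acetyl-CoA to squalene epoxide were higher in Col-0 and 2 lower, with a median of 0.05. All list counts in this paragraph are to be read beside the shares of all genes tested in Col-0, 17.9% called higher and 13.4% lower. SQE4, a squalene epoxidase-like gene, rose from 25.5 to 82.6 CPM (log2 1.70 ± 0.12, adjusted p = 1.42e-09), and SQS2, a squalene synthase gene, by 4.09 ± 0.47 from 0.123 CPM (adjusted p = 1.06e-06). HMG1, the HMG-CoA reductase, rose by 0.37 ± 0.06, while MVK, mevalonate kinase, fell by 0.58 ± 0.07. Of 10 sterol genes, 0 were higher and 2 lower (SMT1 -0.29 ± 0.07, CPI1 -0.36 ± 0.09). Of 10 chromatin regulators, which include the Polycomb subunits that mark such clusters, VRN2 was higher in Col-0 (0.24 ± 0.07) and SWN lower (-0.26 ± 0.09). VRN2 was called higher in both mutants as well. SWN was called lower in vnd123 (-0.41 ± 0.09) but not in vnd7 (-0.22 ± 0.09, adjusted p = 0.0749). LHP1 (-0.24 ± 0.09) and ARP6 (-0.26 ± 0.07) were called lower in vnd7 alone.

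Some markers of cell types and tissues moved with ABA as well. Of 10 root epidermis and root hair markers, 6 were higher in Col-0 and 1, CPC, was lower (-0.57 ± 0.11). The shares of all genes tested were 17.9% higher and 13.4% lower. WER (-0.10 ± 0.15), GL2 (-0.22 ± 0.09) and RHD6 (0.01 ± 0.12) were not called. The sum of the list went from 353–395 CPM in mock to 660–741 in ABA. PRP3 went from 113 to 251 CPM and PRP1 from 4.86 to 103 CPM. The sum was 613–768 in vnd123 ABA and 605–698 in vnd7 ABA. Root identity markers went in sum from 8630–9410 to 5950–6590 CPM, mostly through PYK10 (-0.58 ± 0.08). Root cap markers summed to 11.7–14.9 CPM in mock and 12.2–19.1 in ABA, and shoot and photosynthesis markers to 133–170 and 98.7–137. The shoot markers summed to 105–140 CPM in mock and 73.6–93.9 in ABA in vnd123, and to 99.5–137 and 79.6–117 in vnd7, ranges that overlapped those of Col-0 except in vnd123 ABA. Of 7 tested, RBCS1A was called lower in vnd123 than in Col-0 in ABA (-1.28 ± 0.25, adjusted p = 0.012), and 0 were called in vnd7; their median changes against Col-0 in ABA were -0.60 in vnd123 and -0.40 in vnd7. Their part in the cluster results was not tested, and in whole roots fewer cells of a type and less RNA per cell cannot be told apart.

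Some cluster genes also varied together among the replicates of a group. After subtracting group means, THAS, THAH and THAD correlated at 0.94 to 0.97 over the 18 libraries, and THAA with them at 0.49 to 0.58. MRN1 correlated with CYP71A16 at 0.74, with CYP705A12 at 0.55 and with THAS at 0.15. With the thalianol genes, MRN1 ran from -0.26 (THAA) to 0.21 (THAH) and CYP71A16 from 0.13 (THAA) to 0.54 (THAH). CYP705A12 ran from -0.01 (THAA) to 0.63 (THAH), so some values between the clusters were as high as some within the marneral cluster. Libraries of a group share genotype and treatment, and the values are descriptions. Among 17240 other genes, the pattern nearest to MRN1 in all 18 libraries was that of AT1G28240 (r = 0.977), then BRG2, CYP707A3, CCD8 and AT5G49900, and nearest to THAS MYC4 (0.969), HKL1, CYP716A2, AT3G45160 and AT3G45710. Mock and ABA libraries form separate clusters, which these values follow; with group means subtracted the nearest to MRN1 were PLP4 (0.878), AT1G75860, AT1G10040, SRT2 and DYW1, and to THAS AT5G38030 (0.903), AT4G20300, PYK10, ARF4 and AT4G25620.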

How the data were processed

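Roots of 3 genotypes with and without ABA were measured by RNA-seq in 18 libraries. Values are whole, unnormalized read counts for each gene, as deposited. HISAT2 and HTSeq are named by the submitters' processing notes; their versions and settings, the genome build and the annotation are not given in the sources consulted. Per the labels' protocols, the library kit was for paired reads of 150 bases. Locus codes were matched to TAIR10.1 (32548 of 34218 features found; 1385 features carry no locus code) for names, exon lengths, neighbours and promoters. All columns matched a sample.

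The deposited counts entered edgeR 4.0.16 (R 4.3.3): filterByExpr by group, TMM factors, and 1 quasi-likelihood fit to all libraries with 6 group coefficients (common biological coefficient of variation 0.106). The same kind of fit was also run on simulated counts with changes planted in the Col-0 ABA group, and its outcome is not given here. Alternatives were DESeq2 1.42.0, RLE factors, unscaled totals, no filter, a replicate block, fitting only the groups compared, and leaving out each library. Correlations used log2 CPM with a prior count of 2.

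The text names all 7 members, up to 3 loci on each side of a cluster, all other cyclases, at most 4 called members of each other list, and the 5 genes nearest to MRN1 and THAS. Uncalled members of the root epidermis list and of the arabidiol and baruol region are named beside the called ones. The members and the gene lists were chosen with earlier results of these data known. No 2 replicates agreed within sampling noise (chi-square per degree of freedom 8.87 to 30.6). With group means subtracted, correlations between same-numbered libraries ran from -0.096 to 0.202, with a median of 0.01 and 6 of 45 over 0.1. The highest was between Col-0 mock and vnd7 mock replicate 1. Libraries with different numbers were not compared, so a shared deviation cannot be judged, and numbers were not treated as pairs.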

Additional observations from a re-analysis of the deposited data

How the results depend on the processing

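Of 1505 alternative values of tested member changes, 1461 kept their direction and side of the threshold. Of 329 alternative values of the untested descriptions, 328 moved by less than the spread between replicates, though 5 near 0 changed sign on leaving out a library: THAS (-0.10 to 0.11) and THAA (-0.11 to 0.02) in vnd123 against Col-0 in mock, and CYP71A16 (-0.04 to 0.11), THAS (-0.04 to 0.27) and THAD (-0.06 to 0.23) in the vnd123 interaction. Under the alternatives run, no member's call for ABA against mock was lost. DESeq2 called 407 genes in vnd123 against Col-0 in ABA, 38 in vnd7 against Col-0 in mock, 159 in vnd7 against Col-0 in ABA, and 167 and 283 in vnd123 against vnd7 in mock and ABA; it called 1 member in the first comparison and 5 in the third. Fitting only the 2 groups gave 56 genes in vnd7 against Col-0 in ABA, and called MRN1 there (0.88, adjusted p = 0.00123) and in vnd123 against vnd7 in ABA (-0.59, adjusted p = 0.00476). Leaving out 1 library gave 116 to 284 genes in vnd123 against Col-0 in ABA; member calls of 0 to 1 there, 0 to 1 in vnd7 against Col-0 in mock, 0 to 4 in vnd7 against Col-0 in ABA and 0 to 1 in vnd123 against vnd7 in ABA. MRN1 then ran from 0.70 to 1.21 in vnd7 against Col-0 in mock and from 0.78 to 0.97 in ABA. The mock range uses Col-0 libraries that were part of the comparison that chose MRN1. Small differences changed sign: THAA in vnd7 mock (0.00 unscaled, -0.08 to 0.10 on leaving out a library), THAS in vnd123 against Col-0 in ABA (-0.00 to 0.30), the thalianol genes in vnd123 against vnd7 in mock (THAS -0.24 to 0.03, THAH -0.10 to 0.04, THAD -0.09 to 0.06, THAA -0.13 to 0.03) and the vnd7 interaction of MRN1 (-0.33 to 0.18). With a replicate block, THAD in vnd7 against Col-0 in ABA passed (0.59, adjusted p = 0.0447), and no other member call changed. The causes were not tested. MRN1 in Col-0 mock rests on 180 to 310 reads a library, the lowest depth of any member.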

Other observations

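Genes of other triterpene regions also changed with ABA. Of 10 genes of the arabidiol and baruol region of chromosome 4, 6 were called lower in Col-0, 9 in vnd123 and 8 in vnd7, and 0 higher in each, where 13.4%, 13.8% and 14.5% of all genes were called lower; the medians were -1.14, -1.53 and -1.40. In Col-0, CYP702A5, a P450 gene, fell from 20.5 ± 2.35 to 6.68 ± 1.53 CPM (log2 -1.61 ± 0.15, adjusted p = 7.97e-08) and PEN1 from 56.7 to 30.8 CPM. CYP702A3 and CYP705A3 were called lower in each genotype from low levels, 0.59 and 0.603 CPM in Col-0 mock. They had at most 39 and 46 reads in a Col-0 mock library. CYP705A2 (-0.61 ± 0.27), CYP705A4 (-0.29 ± 0.15), BARS1 (-1.40 ± 0.62) and CYP702A6 (0.44 ± 0.34) were not called in Col-0. Of the 3 genes of the tirucalladienol region, CYP716A1 rose by 1.24 ± 0.21 (adjusted p = 0.00011) while CYP716A2 fell from 20.4 ± 2.05 to 2.88 ± 1.32 CPM (log2 -2.81 ± 0.22, adjusted p = 5.74e-09) and PEN3 fell by 1.80 ± 0.37, so genes of 1 region moved in both directions. Closely related P450 copies may share reads.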
